A study of Oryza sativa with 4 samples.

Results

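The regions described here are the short constant accessible regions of the rice root tip. Peaks from 4 single-nucleus libraries were merged wherever they shared at least 1 bp, and a merged region counted as constant when each of the 4 libraries had a peak in it. Of 66332 merged regions 55496 were constant, and 1647 of these were shorter than 400 bp. These 1647 regions made up 2.48% of all merged regions and 2.97% of the constant ones.

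The material was the 5 mm tip of primary roots of Oryza sativa ssp. japonica cultivar Nipponbare, taken from seedlings of 3 days. The 2 HS libraries came from seedlings that, according to the methods of the study, spent 3 h at 45 °C, a treatment that the sample labels do not spell out. Seedlings of all 4 libraries were grown at 28 °C, and those of the 2 Normal libraries had no heat treatment. Nuclei were isolated from root tips pooled over many seedlings, so each library is a mixture of all the cell types of the tip, and no library traces back to 1 plant.

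In the assay, Tn5 transposase enters isolated nuclei and cuts DNA where chromatin is not tightly packed with nucleosomes, and a droplet barcode then records the nucleus of each fragment. A stretch with many cut sites is called a peak, and such stretches often hold promoters, enhancers and other sequences that transcription factors bind. Long accessible stretches usually cover the promoter and the flanks of an active gene, whereas short ones may be single nucleosome-free gaps. In the root tip, the root cap shields the meristem and senses gravity, and root hairs are outgrowths of epidermal cells that take up water and nutrients.

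The 1647 regions were chosen by the peak calls, so their length and their presence in all 4 lists are not findings. A library's matrix holds counts only inside that library's own peaks. For a short region the count therefore depends on how many bases the peak caller covered in that library. Called lengths are given for most of the regions named below. Peaks of 1 list were never closer than 501 bp to each other. Each of the 1647 regions held exactly 1 peak per library. No genome sequence or gene annotation of the matching build was used, the peaks refer to a Nipponbare assembly with a version not given in the sources used here, and none of the regions overlapped the body or the upstream 2000 bp of the 9 root hair and 11 root cap marker genes described further on.

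Nuclei kept per library numbered 9571 and 9577 in HS and 11094 and 11016 in Normal, with medians of 25932 and 26421 cut sites per nucleus in HS and 21698.5 and 22000.5 in Normal. Constant regions held between 260095595 and 265927433 cut sites per library. Between 133 and 187 barcodes of kept nuclei occurred in both libraries of any pair, 133 for the HS pair, 187 for the Normal pair and 141 to 155 across conditions. The study describes its HS libraries as independent rounds of the assay and its samples as handled in more than 1 batch. The labels do not assign libraries to rounds, plantings or batches, so p-values measure the spread between these libraries, which may be technical, and a batch that differs between HS and Normal cannot be told apart from the treatment.

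Presence in all 4 libraries was rare among short regions. A merged region spans all its peaks, so a peak from a further library can only keep or lengthen it. The shares by length are therefore set in part by the merging. With 3 peak lists merged, 2142 to 2219 short regions had a peak in each. Of the 10005 merged regions under 400 bp, 3891 had a peak in 1 library, 3399 in 2, 1068 in 3 and 1647 in 4. The constant share was thus 16.5%, against 85.2% of regions of 400 to 800 bp, 97.1% of those of 800 to 1600 bp and 99.8% of those of 1600 to 3200 bp (each class includes its lower limit and not its upper one). A further 984 short regions had a peak in both HS libraries and in neither Normal library, and 2032 had a peak in both Normal libraries and in neither HS library.

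The lengths crowded against the upper limit. The shortest region was 57 bp, the median 353 bp and the longest 399 bp, with quartiles of 308 and 380 bp. In all, 861 of the 1647 regions (52.3%) were 350 to 399 bp long, 435 were 300 to 349 bp, 196 were 250 to 299 bp, 96 were 200 to 249 bp, 57 were 100 to 199 bp and 2 were under 100 bp. Together they covered 553467 bp, which is 0.388% of the bases in constant regions. Densities are given as CPM, the cut sites of a region per 1000000 cut sites in all constant regions of the library, and per kb of merged length. At the limit itself, the 245 regions of 390 to 399 bp had a median density of 2.03 and 2.00 CPM per kb in HS and 2.23 and 2.19 in Normal, and the 327 constant regions of 400 to 409 bp just outside had 2.02 and 2.11 in HS and 2.28 and 2.33 in Normal.

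The 4 peak callings of a short region rarely covered the same bases. The median called length was 256 and 266 bp in HS and 292 and 298 bp in Normal, and the median stretch covered in all 4 libraries was 169 bp. In 22 regions no base was covered in all 4, although a peak of each library lay in the merged region. The called length stayed within 10% across libraries in 72 short regions (4.37%), against 39.9% of all constant regions. The mean called length was smaller in HS in 981 regions, larger in HS in 664 and equal in 2. Both HS peaks were shorter than both Normal peaks in 629 regions, and both were longer in 345. These counts of shorter and longer calls were not made over all constant regions. They are therefore not shown to be particular to short ones. Peaks of under 50 bp numbered 93 and 65 in HS and 70 and 51 in Normal, and the shortest peak was 1 bp in each library.

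The 3 shortest regions show how uneven such calls were. The region of 57 bp on chromosome 1, from 6779945 to 6780001, was called over 57 and 5 bp in HS and over 5 and 27 bp in Normal, and it held 25 and 2 cut sites in HS and 1 and 10 in Normal. The region of 79 bp on chromosome 9, from 854660 to 854738, was called over 32 and 3 bp in HS and 79 and 13 bp in Normal, with 13 and 3 cut sites in HS and 37 and 8 in Normal. In both regions the ranges of HS and Normal overlapped, and the widest call of a region also held its highest count. The region of 106 bp on chromosome 7, from 20833777 to 20833882, was called over 17 and 34 bp in HS and 101 and 97 bp in Normal and held 6 and 19 cut sites in HS and 34 and 37 in Normal. Here the conditions did not overlap in called length or in cut sites. The log2 fold change of HS over Normal was -1.49 ± 1.08 (SE, n = 2 libraries each), which did not pass the test (edgeR quasi-likelihood, adjusted p = 0.263).

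Short constant regions lay on all 12 chromosomes, between 118 on chromosome 9 and 162 on chromosome 11. Per Mb up to the last peak of the chromosome, the smallest density was 3.66 on chromosome 1 and the largest 5.63 on chromosome 11, with 4.42 over the genome. The order did not follow that of all constant regions, which were densest on chromosome 3 (161 per Mb) and sparsest on chromosome 4 (129 per Mb). Chromosomes 1, 2 and 3 had 2.32%, 2.32% and 2.31% of their constant regions in the short class, and chromosomes 10, 11 and 12 had 3.76%, 3.85% and 4.02%. The share of merged regions under 400 bp that were constant also differed, from 13.8% on chromosome 2 to 18.5% on chromosome 10. No test was run between chromosomes, since each is 1 unit.

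**Figure D1:**
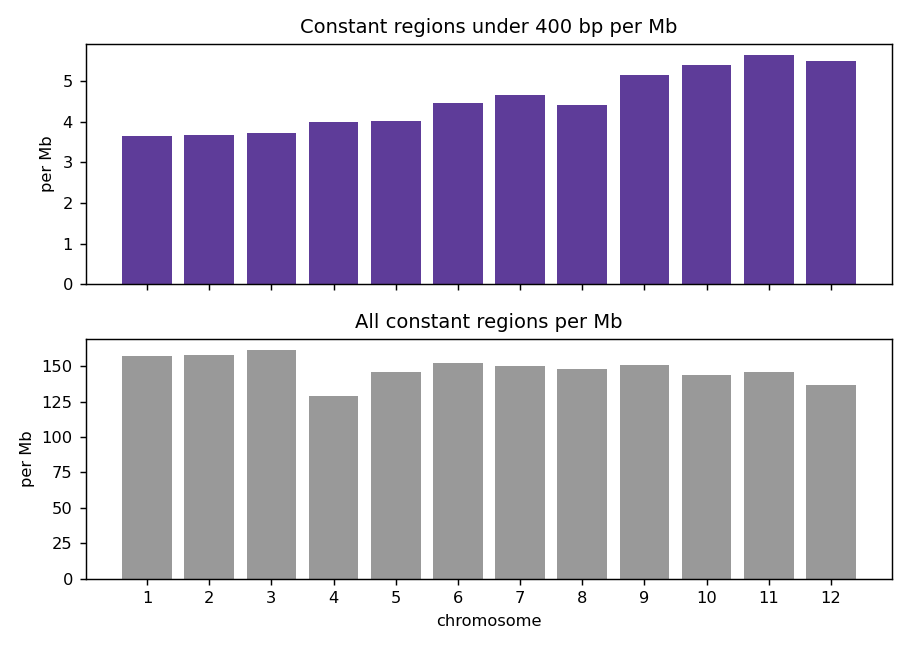
Constant regions under 400 bp (upper panel) and all constant regions (lower panel) per Mb on each of the 12 chromosomes, with the chromosome length taken up to its last peak. The bars for short regions reach from 3.66 per Mb on chromosome 1 to 5.63 per Mb on chromosome 11, while the bars for all constant regions are highest on chromosome 3.

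The next merged region lay a median of 1018 bp from a short constant region (quartiles 692 and 1812 bp), against 913 bp for all constant regions and 828 bp for those of 3200 bp or more. In the classes between, the median was 980.5 bp at 400 to 800 bp, 955 bp at 800 to 1600 bp and 897 bp at 1600 to 3200 bp. The nearest neighbour was smaller than elsewhere, with a median length of 876 bp against 1290 bp for all constant regions. Counted over neighbours that were themselves constant, the median distance was 1203 bp, and to the farther of the neighbours on either side it was 3299 bp. Short regions nonetheless had as many regions within 50 kb on each side, a median of 19, as constant regions of all lengths. In order along the chromosome, 160 of them (9.71%) followed or preceded another short constant region, against 4.71% of all constant regions that followed or preceded one.

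Few short regions stood alone. The distance was over 10 kb for 30 of them (1.82%), against 1.05% of all constant regions. The most isolated was a region of 362 bp on chromosome 10, from 12823773 to 12824134, at 60621 bp from its nearest neighbour. It held 226 and 263 cut sites in HS and 272 and 302 in Normal, so the HS values lay below the Normal ones without an adjusted p at the limit (log2 fold change -0.22 ± 0.23, edgeR quasi-likelihood adjusted p = 0.430). A region of 310 bp on chromosome 12, from 21374766 to 21375075, lay 44152 bp from the next region and held 198 and 198 cut sites in HS and 233 and 235 in Normal. A region of 360 bp on chromosome 6, from 15101224 to 15101583, lay 39144 bp from the next and held 185 and 186 cut sites in HS and 261 and 254 in Normal. All 3 isolated regions had densities above the median of short regions in every library, from 1.94 to 3.17 CPM per kb. None of the 3 passed the test of HS against Normal. In the same order, their called lengths were 333 and 345, 282 and 275, and 253 and 266 bp in HS. In Normal they were 345 and 362, 307 and 310, and 347 and 350 bp.

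Short constant regions were the least densely cut of the constant regions. The median over the 1647 regions was 1.83 and 1.89 CPM per kb in HS and 2.06 and 2.09 in Normal, against 2.98 and 3.02 in HS and 3.17 and 3.20 in Normal at 400 to 800 bp and 6.88 and 6.88 in HS and 6.82 and 6.81 in Normal at 3200 bp or more. The highest value of any short region was 3.52 and 3.30 in HS and 3.66 and 3.51 in Normal, below the median of all constant regions (4.62 in HS and 4.58 in Normal, means of 2 libraries). At 400 to 800 bp the highest value was 28.0 and 28.4 in HS and 26.7 and 25.8 in Normal. Among short regions only, density also went up with length, as a description of how the values lie: at 100 to 199 bp the medians were 1.06 and 1.33 in HS and 1.35 and 1.32 in Normal, and at 350 to 399 bp they were 1.98 and 1.99 in HS and 2.19 and 2.20 in Normal. Per kb of called length, short regions were again lowest, with medians of 2.38 in HS and 2.40 in Normal (means of 2 libraries). The same medians were 3.24 and 3.39 at 400 to 800 bp and 7.38 and 7.35 at 3200 bp or more. Peaks are called from the cut sites themselves, so none of these differences between length classes was tested.

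**Figure D2:**
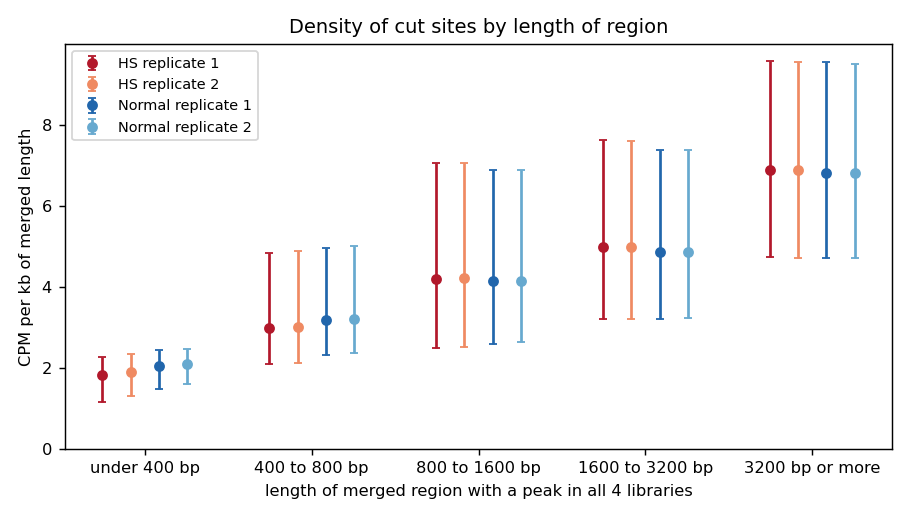
CPM per kb of merged length for constant regions in 5 classes of length, as the median over regions (points) with quartiles (bars) in each library. Regions under 400 bp sit lowest, with medians of 1.83 and 1.89 in HS and 2.06 and 2.09 in Normal, and regions of 3200 bp or more sit highest, between 6.81 and 6.88.

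In absolute terms the counts were small. A short region held a median of 160 and 168 cut sites in HS and 181 and 185 in Normal, and at most 360 and 335 in HS and 351 and 363 in Normal. No cut site was left in kept nuclei in 7 and 5 regions in HS and in 14 and 5 in Normal, and in these the peak spanned at most 25 and 3 bp in HS and 16 and 12 bp in Normal. A count of 0 still allows a level of up to 3 cut sites in the called bases, which is between 0.0113 and 0.0115 CPM in these libraries. Such limits cover counting error only. They are not limits for the whole merged region, since cut sites outside the called bases are not in the matrix. Of the cut sites that all barcodes had in short regions, 92.8% and 92.8% in HS and 92.7% and 92.4% in Normal lay in barcodes taken as cells, against 93.9% and 93.9% in HS and 93.7% and 93.7% in Normal for regions of 3200 bp or more.

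The 3 short regions with the highest density in Normal had between 2.72 and 3.66 CPM per kb in every library. They were ranked on the Normal libraries, so lower values in HS can follow from the choice itself. On chromosome 3, from 28574228 to 28574620, a region of 393 bp held 360 and 335 cut sites in HS and 348 and 363 in Normal, or 3.52 and 3.20 CPM per kb in HS and 3.38 and 3.51 in Normal. The HS and Normal values overlapped, and the log2 fold change was -0.02 ± 0.17 (edgeR quasi-likelihood, adjusted p = 0.914). On chromosome 4, from 3282013 to 3282355, a region of 343 bp held 280 and 301 cut sites in HS and 329 and 278 in Normal, again with overlap. On chromosome 11, from 25984066 to 25984455, a region of 390 bp held 295 and 282 cut sites in HS and 351 and 348 in Normal, and both HS values lay below both Normal values. Called lengths in HS were 389 and 387 bp on chromosome 3, 338 and 341 on chromosome 4 and 365 and 359 on chromosome 11. In Normal they were 384 and 393, 333 and 326, and 381 and 390 bp. At the other end of the Normal densities, a region of 173 bp on chromosome 12, from 4392473 to 4392645, held 12 and 74 cut sites in HS and 2 and 1 in Normal, with called lengths of 100 and 173 bp in HS and 71 and 61 bp in Normal. Its HS values were far apart, and the difference did not pass the test (edgeR quasi-likelihood, adjusted p = 0.0387 against a limit of 0.01).

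Counts were odd more often in short regions than in long ones. A fragment that lies whole within a peak adds 2 cut sites, and 1 that reaches across the border of the peak adds 1, so an odd count in a nucleus means that at least 1 fragment had its other end outside the peak. Odd counts made up 47.3% and 45.8% of the nucleus-by-region entries above 0 in HS and 43.5% and 41.2% in Normal. In regions of 400 to 800 bp the share was 13.9% and 13.3% in HS and 13.9% and 13.1% in Normal, and at 3200 bp or more it was between 1.73% and 1.89% in each library. Inside the short class the share went from 85.8% and 84.2% in HS and 80.7% and 81.0% in Normal at 100 to 199 bp, to 40.8% and 39.1% in HS and 37.1% and 35.1% in Normal at 350 to 399 bp. A nucleus with any cut site in a short region had 1.59 and 1.61 of them in HS and 1.61 and 1.64 in Normal.

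A short constant region was open in few nuclei. With each nucleus thinned to 2500 fragments in constant regions, which left out no nucleus, the median region had a fragment in 0.199% and 0.198% of nuclei in HS and in 0.207% and 0.218% in Normal. The same medians for all constant regions were 1.91% in HS and 1.90% in Normal (means of 2 libraries), and for regions of 3200 bp or more 8.61% in both. At 400 to 800 bp they were 0.470% in HS and 0.498% in Normal. These shares are not per kb, and a longer region has more bases in which a fragment can fall. The most widely open short region reached 0.428% and 0.533% of nuclei in HS and 0.451% and 0.427% in Normal. Without thinning the median was 1.08% and 1.11% in HS and 1.02% and 1.03% in Normal, so the order of the conditions turned round, beside a median depth per nucleus that was higher in HS. A thinned nucleus had a fragment in 3.09 and 3.17 short regions on average in HS and in 3.37 and 3.39 in Normal. Only called bases are counted, and these came to 394761 and 408865 bp over the short regions in HS. In Normal they came to 437183 and 449118 bp. Whether the lower thinned shares in HS follow from the shorter calls was not tested. Background DNA can leave a cut site in a nucleus where the region is closed, and its part in these low shares was not tested.

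In the comparison of HS with Normal, which asks how root tip chromatin responds to heat, the short regions as a class took a smaller share of the cut sites in HS. The share was 0.0957% and 0.0984% in HS and 0.106% and 0.110% in Normal, with means of 0.0971% ± 0.0019 in HS and 0.108% ± 0.0024 in Normal (SD, n = 2 each) and a ratio of 0.899. The values of the conditions did not overlap. An exact two-sided permutation test gave p = 0.333, which is the smallest that 2 libraries against 2 allow. The median density was lower too, 1.86 ± 0.039 in HS against 2.07 ± 0.022 in Normal (SD, n = 2 each). Per kb of called length, in place of merged length, the medians were 2.39 and 2.37 in HS and 2.40 and 2.41 in Normal, a ratio of 0.991, and the called lengths themselves were shorter in HS as given above. With the counts of the short class and of all other constant regions scaled by merged over called length, the share was 0.122% and 0.122% in HS and 0.123% and 0.124% in Normal. The difference was then -0.00135 percentage points, against -0.0109 without the scaling.

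Region by region, 1646 of the 1647 short regions passed the filter on low counts and entered a test over 55494 constant regions. The region left out was the one of 57 bp on chromosome 1. A region was called when it changed 2-fold or more and its p, adjusted over all regions by the Benjamini-Hochberg method, did not exceed 0.01 (edgeR quasi-likelihood test). By this rule 19 short regions were higher in HS and 45 were lower. That is 1.15% higher, 2.73% lower and 3.89% in all of those tested, against 1.99% higher, 2.92% lower and 4.91% in all among the regions of every length. Without the limit on fold the same 64 short regions passed, against 48.1% of all regions. The median standard error of the log2 fold change was 0.39 for short regions and 0.05 for all regions, and the smallest change among the 64 was 1.45 on the log2 scale. At an unadjusted p under 0.05 there were 279, with no such count given for all regions.

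The median log2 fold change of the short regions was -0.12 (quartiles -0.64 and 0.30), against 0.00 for all regions, -0.06 at 400 to 800 bp and 0.01 at 3200 bp or more. Both HS libraries lay below both Normal libraries in 639 short regions (38.8%), against 42.7% of all constant regions, and above them in 354 (21.5%), against 40.8%. The counts of called regions hung on single libraries. Without HS replicate 1 there were 6 higher and 94 lower, without HS replicate 2 there were 9 and 104, without Normal replicate 1 there were 26 and 7, and without Normal replicate 2 there were 41 and 6. In these fits the lone library of a condition was assumed to vary like the pair of the other. Whether the counts over regions of every length move alike was not tested.

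The change in cut sites ran beside the change in called length. All 19 regions that were higher in HS had been called longer in both HS libraries than in both Normal libraries, and all 45 that were lower had been called shorter. The median called length was 348.5 bp in HS and 103.5 bp in Normal for the 19, and 83.5 bp in HS and 334 bp in Normal for the 45. Over the 1646 regions, Pearson's r between the log2 change of counts and the log2 change of mean called length was 0.975 and Spearman's rho 0.980. This is a correlation across regions, which share libraries and are not independent replicates, and both measures come from the same reads. Counts exist only inside the called bases of a library, so much of this relation was fixed by construction. The same shares among called regions of every length are not given.

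**Figure D3:**
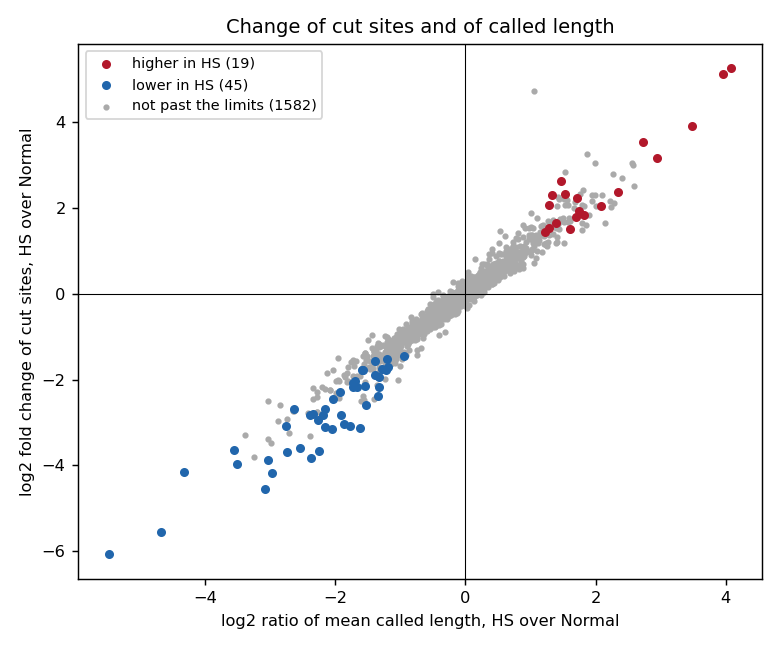
Log2 fold change of cut sites, HS over Normal, against the log2 ratio of mean called length, HS over Normal, for the 1646 short constant regions tested, with 1 point per region. Points lie along a diagonal (Pearson's r of 0.975), with the 19 regions higher in HS at the upper right and the 45 lower in HS at the lower left.

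With the called length of each library as an offset in the model, 1 short region was higher in HS and 5 were lower, all 6 among the 64, against 0.209% higher and 0.247% lower of all regions tested. Without the limit on fold 9 short regions passed (0.547%), against 23.0% of all regions. The median log2 fold change of the short regions was then 0.00. The 1 that rose lies on chromosome 1, from 25741895 to 25742269, and held 264 and 265 cut sites in HS and 24 and 62 in Normal, over 368 and 375 called bp in HS and 100 and 168 in Normal. Its log2 fold change with the offset was 1.16 ± 0.18 (SE). Of the 5 that fell, the largest change with the offset, -1.49 ± 0.26, was that of the region on chromosome 8 from 10346488 to 10346881. The other 4 lay on chromosome 4 from 13398648 to 13398980, chromosome 5 from 18507312 to 18507641, chromosome 9 from 15628471 to 15628845 and chromosome 10 from 5966674 to 5967036, with values of -1.05, -1.47, -1.32 and -1.18.

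When the test was limited to constant regions with called lengths within 10% of each other, 72 short regions were left. None of the 72 changed by 2-fold with an adjusted p of at most 0.01 in the edgeR quasi-likelihood test, beside 0.0452% higher and 0.0271% lower among all regions of that test, and DESeq2 fitted to all constant regions called none of the 72 either. At an unadjusted p under 0.05 there were 9. Without the limit on fold, 3 passed the adjusted p of 0.01, which is 4.17% against 55.8% of all regions of that test. On chromosome 5, from 1381447 to 1381809, a region held 192 and 211 cut sites in HS and 245 and 242 in Normal (log2 fold change -0.27 ± 0.09, SE), without overlap. The densely cut region on chromosome 11 from 25984066 to 25984455, given above, had a log2 fold change of -0.28 ± 0.08 in this fit. On chromosome 12, from 630039 to 630372, a region held 186 and 176 cut sites in HS and 147 and 134 in Normal (0.37 ± 0.09). These 3 were called over 265 to 390 bp in every library.

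Of the 19 regions called higher in HS, the 5 with the largest fold changes all had a peak of at most 21 bp in at least 1 Normal library. On chromosome 5, from 25004172 to 25004423, a region of 252 bp held 149 and 127 cut sites in HS and 3 and 4 in Normal, over 252 and 223 called bp in HS and 9 and 19 in Normal, with a log2 fold change of 5.26 ± 0.71 (edgeR quasi-likelihood, adjusted p = 0.000673). On chromosome 8, from 9452985 to 9453353, a region of 369 bp held 220 and 135 cut sites in HS and 9 and 1 in Normal, over 369 and 204 called bp in HS and 33 and 4 in Normal, with 5.13 ± 0.87 (edgeR quasi-likelihood, adjusted p = 0.00209). These were also among the 3 short regions with the lowest density in Normal. On chromosome 7, from 16116903 to 16117199, a region held 191 and 143 cut sites in HS and 2 and 20 in Normal, over 290 and 234 called bp in HS and 6 and 41 in Normal. On chromosome 12, from 6297650 to 6298003, a region held 152 and 220 cut sites in HS and 20 and 12 in Normal, over 258 and 354 called bp in HS and 77 and 15 in Normal. On chromosome 4, from 21063661 to 21063956, a region held 82 and 154 cut sites in HS and 7 and 19 in Normal, over 181 and 296 called bp in HS and 21 and 41 in Normal. The log2 fold changes of these last 3 were 3.92, 3.53 and 3.17. In all 5 the HS and Normal counts stood well apart, and with called length as an offset the fold changes were 1.22, 1.21, 0.46, 0.79 and 0.24 in the same order, none past the limits. The call on chromosome 7 was also lost with all barcodes, with barcodes above the valley of the cut-site distribution and without removal of doublets (edgeR quasi-likelihood, adjusted p = 0.0195, 0.0130 and 0.0138), and without HS replicate 1, HS replicate 2 or Normal replicate 1 (0.0226, 0.0113 and 0.0130). That on chromosome 4 was lost without the filter on low counts (edgeR quasi-likelihood, adjusted p = 0.0103), with the replicate block (0.0108) and without HS replicate 2, Normal replicate 1 or Normal replicate 2 (0.0626, 0.0467 and 0.0168). Leaving out 1 library moved the log2 fold change on chromosome 8 between 4.29 and 7.32 and that on chromosome 7 between 3.07 and 6.30.

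Of the 45 regions called lower in HS, the 5 with the largest fold changes were called over at most 52 bp in both HS libraries and over at least 205 bp in both Normal libraries. On chromosome 11, from 26124205 to 26124503, a region of 299 bp held 1 and 3 cut sites in HS and 152 and 136 in Normal, over 4 and 9 called bp in HS and 299 and 277 in Normal, with a log2 fold change of -6.08 ± 0.79 (edgeR quasi-likelihood, adjusted p = 0.000564). On chromosome 3, from 11913707 to 11914076, a region of 370 bp held 0 and 7 cut sites in HS and 161 and 179 in Normal, over 3 and 21 called bp in HS and 242 and 370 in Normal, with -5.55 ± 0.99 (edgeR quasi-likelihood, adjusted p = 0.00261). Neither kept its call with the called length as an offset. The value on chromosome 3 was -10.40 without HS replicate 2, and its call was lost without Normal replicate 1 or Normal replicate 2 (edgeR quasi-likelihood, adjusted p = 0.0138 and 0.0162). The region on chromosome 8 from 10346488 to 10346881 did keep it. It held 10 and 10 cut sites in HS and 226 and 254 in Normal, over 52 and 39 called bp in HS and 387 and 383 in Normal, with -4.56 ± 0.47 in the test without offset (edgeR quasi-likelihood, adjusted p = 0.0002). Per called kb it had 0.739 and 0.964 CPM in HS and 2.23 and 2.52 in Normal. On chromosome 4, from 24244966 to 24245330, a region held 7 and 13 cut sites in HS and 245 and 122 in Normal, over 26 and 47 called bp in HS and 365 and 205 in Normal (log2 fold change -4.18). On chromosome 5, from 6576832 to 6577222, a region held 19 and 2 cut sites in HS and 170 and 210 in Normal, over 34 and 2 called bp in HS and 346 and 377 in Normal (-4.14), and with the offset its value turned to 0.18. The call on chromosome 4 was lost with the offset and without Normal replicate 1 (edgeR quasi-likelihood, adjusted p = 0.0190 and 0.0263). That on chromosome 5 was also lost with all barcodes, with barcodes above the valley and without removal of doublets (edgeR quasi-likelihood, adjusted p = 0.0138, 0.0103 and 0.0110), and without Normal replicate 1 or Normal replicate 2 (0.0203 and 0.0296). Leaving out 1 library moved its log2 fold change between -6.49 and -3.29.

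Groups of nuclei were formed within each condition without the short regions, which gave 7 clusters in HS and 9 in Normal. HS and Normal were clustered apart, so equal numbers do not mean equal clusters. All 9 root hair markers had their highest accessibility in HS cluster 3 and in Normal cluster 2, called root hair-like here, and all 11 root cap markers had theirs in HS cluster 6 and Normal cluster 5, called root cap-like. The study picked these markers on these same libraries, so their agreement is not independent support for the names. A few were also high in the other named cluster. The other clusters stay unnamed.

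Short constant regions took a larger share of cut sites in 1 cluster of each condition than in the others. In HS cluster 7 (486 and 491 nuclei) the share was 0.158% and 0.161%, and in the other 6 clusters it was between 0.0890% and 0.105%. In Normal cluster 8 (371 and 445 nuclei) it was 0.167% and 0.173%, and in the other 8 between 0.0957% and 0.124%. Among those 8, clusters 4 and 9 had 0.119% to 0.124%, and clusters 1 and 6 had 0.0957% to 0.102%. The ratio of the highest to the lowest cluster was 1.77 in HS and 1.72 in Normal. In the root hair-like nuclei the share was 0.101% and 0.105% in HS and 0.113% and 0.117% in Normal, and in the root cap-like nuclei 0.0944% and 0.0939% in HS and 0.102% and 0.103% in Normal. In both named types the HS values lay below the Normal values, as they did over all nuclei. These shares per cluster were not scaled to called length, which had a smaller median in HS. Over all nuclei such scaling took the difference from -0.0109 to -0.00135 percentage points.

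**Figure D4:**
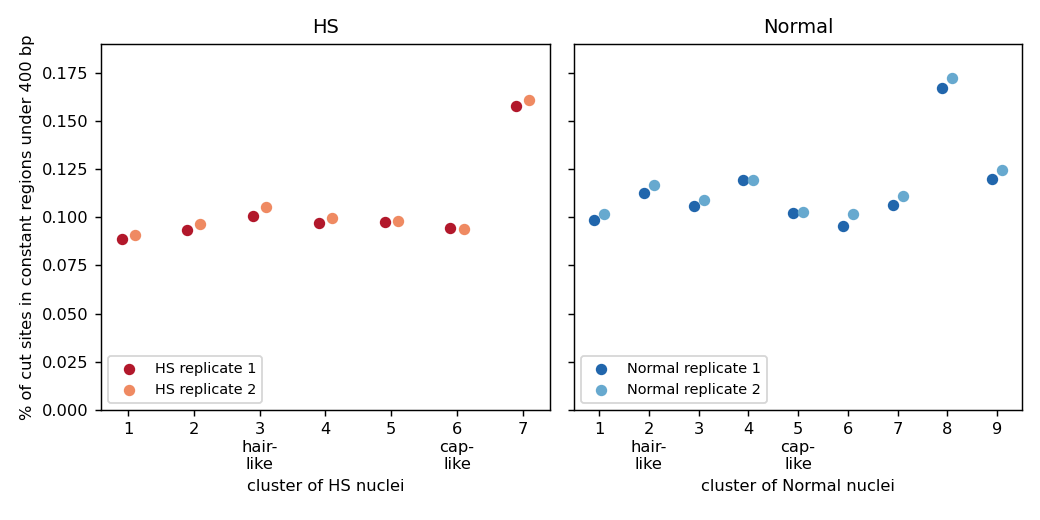
Percent of the cut sites in constant regions that fell in short constant regions, per cluster of HS nuclei (left) and of Normal nuclei (right), with 1 point per library. HS cluster 7 (0.158% and 0.161%) and Normal cluster 8 (0.167% and 0.173%) stand above the other clusters, which lie between 0.0890% and 0.124%.

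The higher share in HS cluster 7 and Normal cluster 8 was spread over most of the short regions. Against all other nuclei of the condition, 1395 of the 1647 regions (84.7%) were higher in HS cluster 7, with a median ratio of 1.67. In Normal cluster 8, 1340 (81.4%) were higher, with a median ratio of 1.57. Most longer regions were higher there too. At 400 to 800 bp it was 70.2% in HS cluster 7 and 66.6% in Normal cluster 8, and at 3200 bp or more 54.7% in both. The median ratio was 1.26 in HS cluster 7 and 1.2 in Normal cluster 8 at 400 to 800 bp, and 1.03 in both at 3200 bp or more. The 10 short regions with the most cut sites held 1.74% of the short-region cut sites in HS cluster 7 and 1.74% in Normal cluster 8. The median depth of a nucleus was 11597 and 12462 cut sites in HS cluster 7 and 11524 and 12145 in Normal cluster 8, below most clusters. HS cluster 5 and Normal cluster 7 were shallower still, with 7407.5 and 8940 cut sites in HS cluster 5 and 7365 and 7753 in Normal cluster 7, and their shares were 0.0977% and 0.0982% in HS and 0.106% and 0.111% in Normal. What kind of nuclei the 2 clusters hold was not tested.

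Regions at least 2-fold higher in a named type of nucleus were about as frequent among short regions as among longer ones. At least 2-fold higher in root hair-like nuclei than in all other nuclei, in each of the 4 libraries, were 66 short regions (4.01%), against 4.73% of the longer constant regions, and 13 were at least 4-fold higher (0.789% against 0.834%). In root cap-like nuclei 57 short regions were at least 2-fold higher in each library (3.46% against 3.32%) and 13 at least 4-fold higher (0.789% against 0.652%). At least 2-fold lower in each library were 27 short regions in root hair-like nuclei (1.64% against 3.87%) and 91 in root cap-like nuclei (5.53% against 7.30%). Counts behind these values were low, with medians of 28 cut sites in the root hair-like and 8 in the root cap-like cluster per region, and counting error is large at such levels. The same cluster was highest in both libraries for 711 short regions in HS (43.2%, against 66.5% of longer constant regions) and 576 in Normal (35.0%, against 57.8%).

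The 3 short regions with the largest ratio between clusters were chosen on the Normal libraries, among 458 regions with at least 20 cut sites in each Normal library of their highest cluster, so that their Normal levels are a description and the HS libraries are the ones not used in the choice. The one with the largest ratio, of 393 bp on chromosome 7 from 11344859 to 11345251, was highest in root cap-like nuclei. Levels within a group of nuclei are CPM of the cut sites that this group had in all constant regions. It had 5.93 and 7.06 CPM there in HS (88 and 104 cut sites) and 5.04 and 6.23 in Normal (103 and 126), against 0.575 and 0.490 CPM in all other nuclei in HS and 0.666 and 0.691 in Normal. The ratio of root cap-like to other nuclei was 10.3 and 14.4 in the HS libraries and 7.58 and 9.02 in the Normal ones. Root hair-like nuclei had 1.48 and 1.02 CPM in HS and 1.83 and 1.86 in Normal. In HS the unnamed cluster 5 was above them, with 1.66 and 1.22 CPM from 10 and 8 cut sites. In Normal no unnamed cluster was above 1.41 CPM. Over all nuclei the region held 229 and 227 cut sites in HS and 264 and 294 in Normal, and the log2 fold change did not pass the test (-0.28 ± 0.24, edgeR quasi-likelihood, adjusted p = 0.331). It was called over 334 and 329 bp in HS and 342 and 393 bp in Normal.

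Another of the 3, of 350 bp on chromosome 1 from 6393614 to 6393963, was highest in root hair-like nuclei. It had 3.14 and 2.89 CPM there in HS (149 and 141 cut sites) and 2.99 and 3.36 in Normal (137 and 148), against 0.296 and 0.350 in all other nuclei in HS and 0.365 and 0.469 in Normal. The ratio was 10.6 and 8.24 in HS and 8.20 and 7.16 in Normal. Among single clusters, unnamed Normal cluster 8 was close to it in replicate 1, with 2.92 CPM from 17 cut sites, and had 0.707 CPM from 5 cut sites in replicate 2, and no HS cluster other than the root hair-like one was above 1.98 CPM. Over all nuclei it held 212 and 217 cut sites in HS and 216 and 251 in Normal (log2 fold change -0.11 ± 0.27, edgeR quasi-likelihood, adjusted p = 0.726). It was called over 305 and 293 bp in HS and 290 and 350 bp in Normal.

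The remaining one, of 395 bp on chromosome 6 from 19477362 to 19477756, was highest in the unnamed Normal cluster 9 (238 and 249 nuclei), with 7.84 and 7.0 CPM from 33 and 31 cut sites, against 0.562 and 0.780 in all other Normal nuclei. In HS no cluster was above 2.56 CPM. The highest HS values were 1.72 and 2.56 CPM in cluster 7 (13 and 20 cut sites) and 1.98 and 1.98 in cluster 1 (172 and 175 cut sites), and in root hair-like nuclei it had 0.253 and 0.225 in HS and 0.131 and 0.273 in Normal. Whether the nuclei of Normal cluster 9 have a counterpart of their own in HS was not tested. Over all nuclei the region held 261 and 266 cut sites in HS and 178 and 233 in Normal, without overlap, and the log2 fold change was 0.37 ± 0.27 (edgeR quasi-likelihood, adjusted p = 0.272). Its called lengths did not overlap either, with 393 and 395 bp in HS and 290 and 376 bp in Normal.

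**Figure D5:**
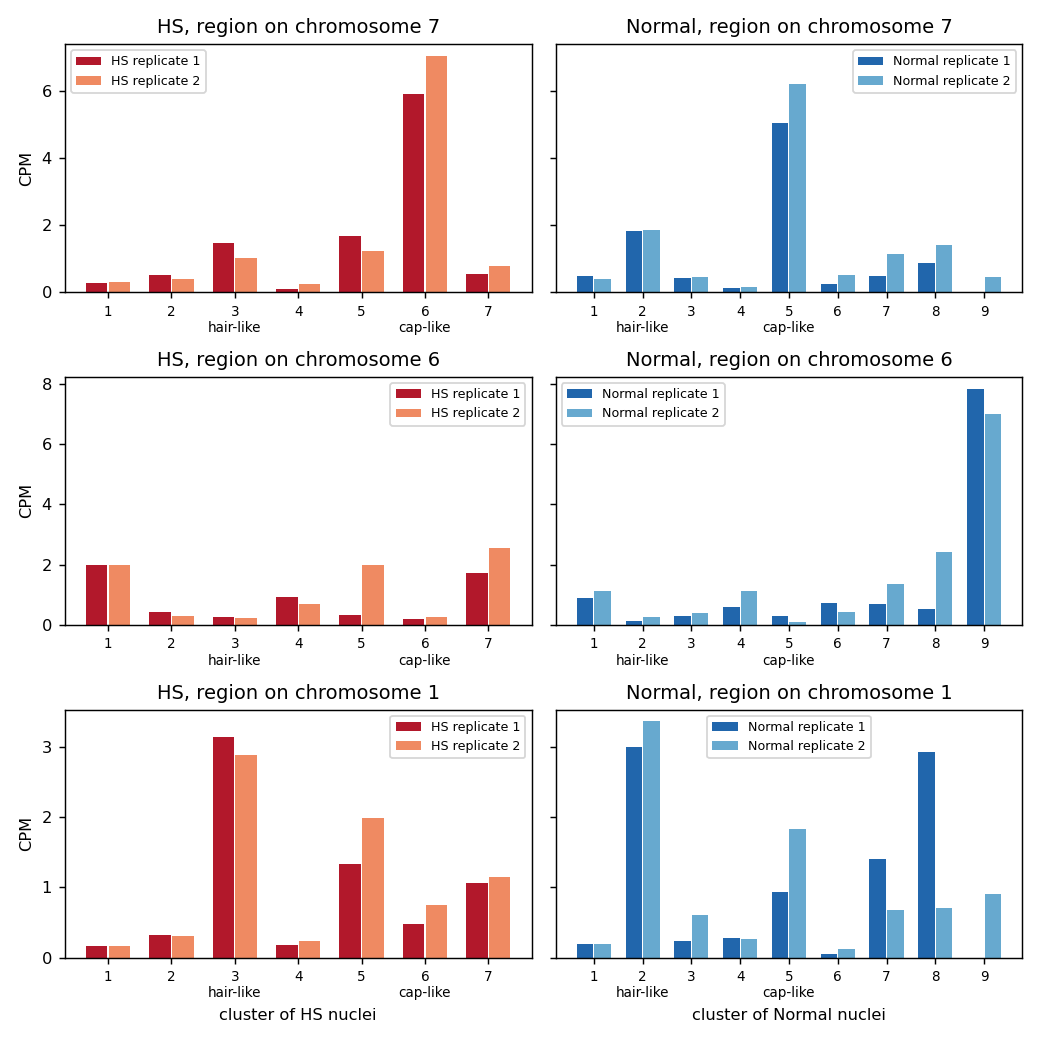
CPM in each cluster of HS nuclei (left) and Normal nuclei (right) for 3 short constant regions, on chromosome 7 (top), chromosome 6 (middle) and chromosome 1 (bottom), with 1 bar per library. The region on chromosome 7 is highest in root cap-like nuclei (5.93 and 7.06 in HS, 5.04 and 6.23 in Normal), the region on chromosome 1 in root hair-like nuclei (3.14 and 2.89 in HS, 2.99 and 3.36 in Normal), and the region on chromosome 6 in Normal cluster 9 (7.84 and 7.0).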

How the data were processed

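Each library was processed by the authors with Cell Ranger ATAC, version 1.2.0 by the submitters' processing notes, on a Nipponbare assembly (version not given in the sources used here). The deposited files are peak lists (chromosome, start and end), barcode lists and matrices of raw counts of cut sites per peak and barcode, per the file headers neither normalized nor filtered for cells. Peaks were merged in Python 3.11.15 with pandas 2.3.3. Cells are the deepest barcodes of a library, as many as the study counts for it. Doublets were scored against simulated ones among 50 neighbours in 30 components of latent semantic indexing, and the square of the number of cells over 100000 was removed (1148 and 1150 in HS, 1614 and 1588 in Normal). Fragments per nucleus and region were the cut sites over 2, rounded up.

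Cut sites were summed per library and HS was tested against Normal with edgeR 4.0.16 (TMM, filterByExpr, quasi-likelihood test, Benjamini-Hochberg adjustment over all constant regions), with DESeq2 1.42.0 as an alternative. Nuclei were clustered per condition with leidenalg 0.10.2 at a resolution of 0.1 from 20 neighbours, without the short regions, and named by 9 root hair and 11 root cap marker genes of the study, from the regions in the gene body or the 2000 bp upstream. Scripts were tested on simulated data. The members and lists were chosen with earlier results of these data known. Named regions are the 5 largest rises and falls past the limits, the 3 with the highest and the 3 with the lowest density in Normal, the 3 farthest from the next region, the 3 shortest, any that overlap a marker gene (there were none) and the 3 with the largest ratio between Normal clusters. Alternatives changed the normalization, filter, cells, doublets, called length, thresholds, length limit and libraries. Sequences, motifs and gene annotation were not used here. Same-numbered libraries did not deviate together (correlation 0.01 over 55494 regions).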

Additional observations from a re-analysis of the deposited data

How the results depend on the processing

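The counts of 19 short regions higher and 45 lower in HS stayed within 1.5 times under another normalization (RLE, or totals only), without the filter on low counts, with all barcodes, with barcodes above the valley of the cut-site distribution and without removal of doublets, and between 52 and 64 of the 64 regions were shared with each of these. They moved to 1 and 5 with called length as an offset, 0 and 0 with equal called lengths (where only 72 short regions are tested), 36 and 104 with DESeq2 (63 of the 64 shared), 53 and 143 at an adjusted p of 0.05, 4 and 5 under 300 bp and 64 and 189 under 500 bp. Leaving out 1 library gave 6 to 41 higher and 6 to 104 lower, and a fit with the replicate number as a block gave 14 and 33 (42 of the 64 shared), although the numbers do not pair the libraries. Shares over all regions are given for the main fit, the offset and the equal called lengths only. The median log2 fold change of -0.12 was -0.0044 with the offset and -0.011 with equal called lengths, and -0.10 to -0.16 without 1 library. The lower share of cut sites in HS kept its direction in every alternative run, from -0.0435 (under 500 bp) to -0.00104 percentage points (under 300 bp), but under 300 bp the conditions overlapped, with 0.0121% and 0.0134% in HS and 0.0131% and 0.0144% in Normal (exact permutation p = 0.667). It was -0.00135 with counts scaled to equal called length, a setting added once the data had been seen. The median density of 1.96 was 1.60 under 300 bp, 2.25 under 500 bp and 2.39 per called kb. The median share of open nuclei of 0.206% was 0.0773% at 1000 fragments, 1.06% unthinned, 0.143% under 300 bp and 0.268% under 500 bp. The number of regions was 351 under 300 bp, 4504 under 500 bp, 1149 when merging asked for 50% of both peaks, and 2142 to 2219 with 3 peak lists. The ratio of highest to lowest cluster was 1.78 at a resolution of 0.05 and 1.79 at 0.2 in HS, and 1.84 at 0.2 in Normal. The fall on chromosome 5 from 6576832 to 6577222 turned to 0.18 with the offset. Beyond the construction of the offset, the equal lengths and the length limits, the cause of these shifts was not tested. A median of 160 to 185 cut sites per region limits what changes could be called.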
